A study of Mus musculus with 64 samples.

Results

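The liver clears drugs, steroids and bile acids with enzymes whose genes are switched on by a pair of nuclear receptors, the pregnane X receptor PXR (gene Nr1i2) and the constitutive androstane receptor CAR (gene Nr1i3). The 10 transcripts described here are both receptors, 3 cytochrome P450 genes of the Cyp3a family (Cyp3a11, Cyp3a13 and Cyp3a25), 2 of the Cyp2b family (Cyp2b9 and Cyp2b10), Por, Alas1 and Ces2a. They were taken by gene symbol from a table of 55487 genes. All 10 had at least 1 read, and 8 passed the filter on low counts that 10097 genes passed; Cyp2b9 and Cyp2b10 did not.

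As background, both receptors pair with the retinoid X receptor, bind repeated half-sites in DNA and respond to foreign compounds and to endogenous steroids and bile acids. Cyp3a11 is the textbook target of PXR in mouse liver and Cyp2b10 that of CAR. Por encodes the reductase that passes electrons from NADPH to microsomal P450 enzymes, and Alas1 the first enzyme of haem synthesis, which supplies their cofactor. Ces2a encodes a carboxylesterase that cleaves esters and amides.

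The livers came from male C57BL/6J mice with free access to food, 4 weeks after injection of an adeno-associated virus of serotype 8 that carried a short hairpin RNA: the sh-Acsf3 group received one against Acsf3, the sh-Ctl group a control. Acsf3 encodes a mitochondrial acyl-CoA synthetase that activates malonate. The labels describe the knockdown as specific to the liver and do not give the promoter that drives the hairpin. Each treatment was sampled at 8 zeitgeber times 3 h apart, from ZT0 to ZT21, where ZT0 is by convention the start of the light phase, with 4 libraries at each time and 64 in all. The labels do not say that each library is a separate mouse, so p-values measure the spread between libraries. In bulk liver, fewer cells of a type and less RNA per cell cannot be told apart.

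Transcripts were counted as unique molecular identifiers (UMIs), each standing for 1 captured RNA molecule, and levels are given in CPM, the usual count unit relative to the library's scaled total. Libraries held 839265 to 9350652 UMIs in sh-Acsf3 livers and 1484486 to 6063636 in sh-Ctl livers. Acsf3 itself averaged 2.56 ± 1.72 CPM in sh-Acsf3 livers and 11.3 ± 2.61 CPM in sh-Ctl livers (SD, n = 32 libraries each), a log2 difference of -2.23 ± 0.13 (SE; edgeR quasi-likelihood test, adjusted p = 1.82e-21). Summed hepatocyte markers, a check of the tissue, ran from 110881 to 154272 CPM in sh-Acsf3 livers and from 78470 to 148466 CPM in sh-Ctl livers. Several other marker sets moved with the knockdown, in a test over all genes where 8.26% rose and 6.21% fell. Of 10 stellate cell and fibroblast markers 8 rose, with summed levels of 343 to 730 CPM in sh-Acsf3 livers and 166 to 336 CPM in sh-Ctl livers. Of 10 Kupffer cell markers 6 rose (141 to 446 CPM in sh-Acsf3 livers and 112 to 453 CPM in sh-Ctl livers), and all 6 tested lymphocyte markers rose (21.6 to 189 CPM in sh-Acsf3 livers and 6.82 to 38.8 CPM in sh-Ctl livers). Exocrine pancreas transcripts summed to 185 to 8302 CPM in 8 libraries, 6 of sh-Acsf3 and 2 of sh-Ctl, and to at most 37.0 CPM in the rest. The acute phase gene Saa1 was at 2092 to 4204 CPM in 4 sh-Ctl libraries and at most at 251 CPM in the rest. Those 4 were replicate 1 at ZT9 and replicate 2 at ZT12, ZT15 and ZT18. Of 12 acute phase genes 7 fell in sh-Acsf3 livers by the averaged test. Their summed levels did not fall at the median. They ran from 6589 to 11794 CPM in sh-Acsf3 livers (median 8279) and from 6032 to 41873 CPM in sh-Ctl livers (median 8010). The part of these markers in the results that follow was not tested, other than by leaving out the libraries of high Saa1 or with pancreas transcripts.

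Averaged over the 8 times, 1 member rose in sh-Acsf3 livers, Cyp3a11, and 1 fell, Ces2a. The other 6 tested members did not pass the test. Every member's difference was tested in a model of all 10097 genes, with adjusted p under 0.05 as the threshold, and in that model 14.5% of genes passed, 8.26% higher and 6.21% lower in sh-Acsf3 livers. The members' share, 2 of 8, is too small a count to read against that background.

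**Figure D1:**
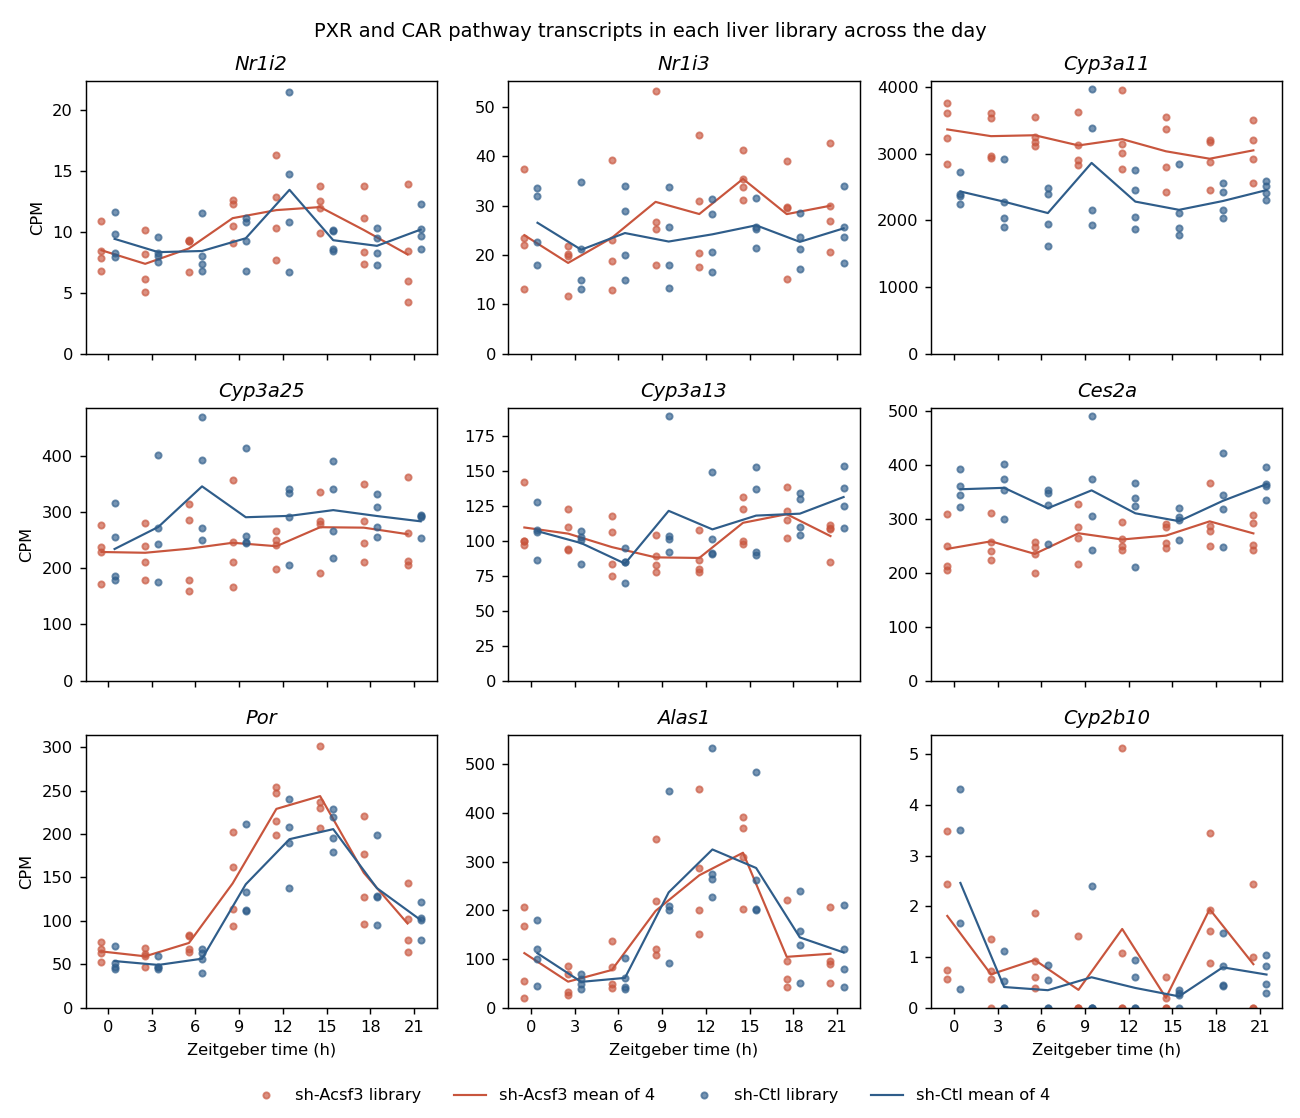
Level of each of 9 members in every library, in CPM, by zeitgeber time in hours; Cyp2b9 is left out because 5 UMIs were counted in all. Red points and lines are sh-Acsf3 libraries and their means, blue ones sh-Ctl, with 4 libraries at each time. Cyp3a11 lay higher and Ces2a lower in sh-Acsf3 livers, and Por and Alas1 rose and fell across the day in both treatments.

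Cyp3a11 lies on chromosome 5 (chr5:145854426-145879964, minus strand, 13 exons, GRCm38). Its promoter is shown with those of Cyp3a25, whose averaged difference had the opposite sign, and of Ces2a. These are the 3 tested members with a receptor half-site close to the start. RefSeq (GRCm38.p6) places the 250 bases before the start at chr5:145879855-145880104 for Cyp3a11 (minus strand), chr5:146009619-146009868 for Cyp3a25 (minus strand) and chr8:104733753-104734002 for Ces2a (plus strand). Capitals mark the half-site AGGTCA and its variant AGTTCA on either strand, and each sequence reads 5′ to 3′ towards the start.
Cyp3a11: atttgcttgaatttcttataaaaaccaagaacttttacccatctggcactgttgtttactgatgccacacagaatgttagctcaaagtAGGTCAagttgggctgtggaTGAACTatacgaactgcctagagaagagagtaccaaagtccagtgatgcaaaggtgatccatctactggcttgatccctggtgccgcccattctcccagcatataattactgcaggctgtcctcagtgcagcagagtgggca
Cyp3a25: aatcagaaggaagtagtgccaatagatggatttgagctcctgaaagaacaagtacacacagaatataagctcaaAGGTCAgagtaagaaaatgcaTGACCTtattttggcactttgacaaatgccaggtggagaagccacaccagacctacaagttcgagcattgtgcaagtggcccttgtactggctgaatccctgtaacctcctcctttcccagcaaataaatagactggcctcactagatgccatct
Ces2a: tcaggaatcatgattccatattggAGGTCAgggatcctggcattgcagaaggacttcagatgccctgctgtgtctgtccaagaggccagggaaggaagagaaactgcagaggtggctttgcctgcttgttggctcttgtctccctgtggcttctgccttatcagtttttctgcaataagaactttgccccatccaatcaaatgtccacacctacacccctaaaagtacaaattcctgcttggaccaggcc
In Cyp3a11 the AGGTCA begins 162 bases before the start and an AGTTCA on the opposite strand 142 bases before it. Cyp3a25 has AGGTCA at 176 bases on the gene's strand and at 155 bases on the opposite strand. Ces2a has 1 AGGTCA, at 226 bases. In windows of 300 bases (250 before to 50 after the start), AGGTCA was found on either strand in 4 of the 10 members. The other was Cyp2b9, which was not tested and has it 138 bases before the start. AGGTCA was in 16.3% of all 32851 promoter windows. AGTTCA was found in 1 of 10 members and in 14% of windows. A match of 6 letters is a description of the sequence and no evidence of binding.

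Of the P450 genes among the members, Cyp3a11 was the one that rose, with Cyp2b9 and Cyp2b10 not tested. Cyp3a11 had the most UMIs of the 10 members. At ZT6 it had 3176, 3551, 3117 and 3253 CPM in sh-Acsf3 livers, against 1607, 1950, 2486 and 2386 CPM in sh-Ctl livers. All sh-Acsf3 libraries lay above all sh-Ctl libraries at that time, as they also did at ZT0, ZT3 and ZT12. Such a separation upwards held for 2.8% of all gene-by-time pairs. At ZT9 the groups overlapped, with 2910, 3617, 3126 and 2831 CPM in sh-Acsf3 livers and 2158, 3380, 1930 and 3969 CPM in sh-Ctl livers.

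Over the day Cyp3a11 ranged from 2418 to 3953 CPM in sh-Acsf3 livers (median 3155) and from 1607 to 3969 CPM in sh-Ctl livers (median 2331). Of the 32 sh-Acsf3 libraries, 24 lay above every sh-Ctl library of their own time, a count that was not made over all genes. The averaged log2 difference was 0.43 ± 0.06 (SE; 95% interval 0.31 to 0.54), a 1.34-fold higher level, with an adjusted p of 4.73e-08 by edgeR's quasi-likelihood test. It was 0.38 without the 4 libraries of high Saa1 and 0.44 without the 8 with pancreas transcripts, and passed in both. The difference had the same sign at 8 of 8 times, from 0.13 at ZT9 to 0.64 at ZT6. At no single time did it pass the test over all genes (smallest adjusted p = 0.0807, at ZT6, edgeR), a scale on which 0.384% of gene-by-time pairs passed and no member did.

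Cyp3a11 is known to have its highest level in hepatocytes around the central vein. Of 13 pericentral marker genes 5 rose in sh-Acsf3 livers and none fell, with a median log2 difference of 0.14, and their summed level ran from 2032 to 5781 CPM in sh-Acsf3 livers and from 3052 to 5813 CPM in sh-Ctl livers. Of 12 periportal markers 2 fell and none rose. Over all tested genes 8.26% rose and 6.21% fell, and the periportal count is too small to read against that. Whether the marker shifts bear on Cyp3a11 was not tested.

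Cyp3a25, a neighbour of Cyp3a11 on chromosome 5 (chr5:145977194-146009618, minus strand), had a difference of the opposite sign. It ranged from 160 to 362 CPM in sh-Acsf3 livers (median 243) and from 176 to 470 CPM in sh-Ctl livers (median 273). The groups overlapped at all 8 times, although the means were lower in sh-Acsf3 livers at each of them. The averaged log2 difference of -0.22 ± 0.09 (SE) did not pass the test (adjusted p = 0.0789, edgeR). It passed without any 1 of 3 libraries, sh-Acsf3 replicate 2 at ZT9, sh-Acsf3 replicate 4 at ZT21 or sh-Ctl replicate 4 at ZT3, with adjusted p of 0.0369, 0.0414 and 0.0467 in that order (edgeR). Of the 50-base stretches in the last 500 bases of Cyp3a25 transcripts, 19.2% also occur in Cyp3a57 or Cyp3a59, so its count could be split between these genes.

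Cyp3a13, a Cyp3a gene that lies apart from the cluster (chr5:137892932-137921619), ranged from 74.6 to 142 CPM in sh-Acsf3 livers (median 101) and from 69.6 to 189 CPM in sh-Ctl livers (median 104). The ranges overlapped at every time, and the averaged log2 difference of -0.10 ± 0.06 (SE) did not pass (adjusted p = 0.309, edgeR).

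Cyp3a11 and Cyp3a25 can also be compared within each library. Because both counts come from 1 library, differences in depth and scaling cancel in their ratio. It is given as a description, since the pair was chosen after the genes' differences were seen. Cyp3a11 had on geometric average 12.9 UMIs for each UMI of Cyp3a25 in sh-Acsf3 livers and 8.21 in sh-Ctl livers. On the log2 scale the ratio averaged 3.69 ± 0.33 in sh-Acsf3 livers and 3.04 ± 0.36 in sh-Ctl livers (SD, n = 32 each), and its mean was higher in sh-Acsf3 livers at 8 of 8 times, by 0.45 to 1.22. The groups did not overlap at 4 of the 8 times, a count for which no share over other pairs of genes was computed. Within the family, of 11 Cyp3a genes 7 had a UMI, and Cyp3a11 took 89.5% of the family's UMIs in sh-Acsf3 livers and 84.5% in sh-Ctl livers. Cyp3a16, Cyp3a41a and Cyp3a41b, which are mainly expressed in female liver, had 0 UMIs.

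**Figure D2:**
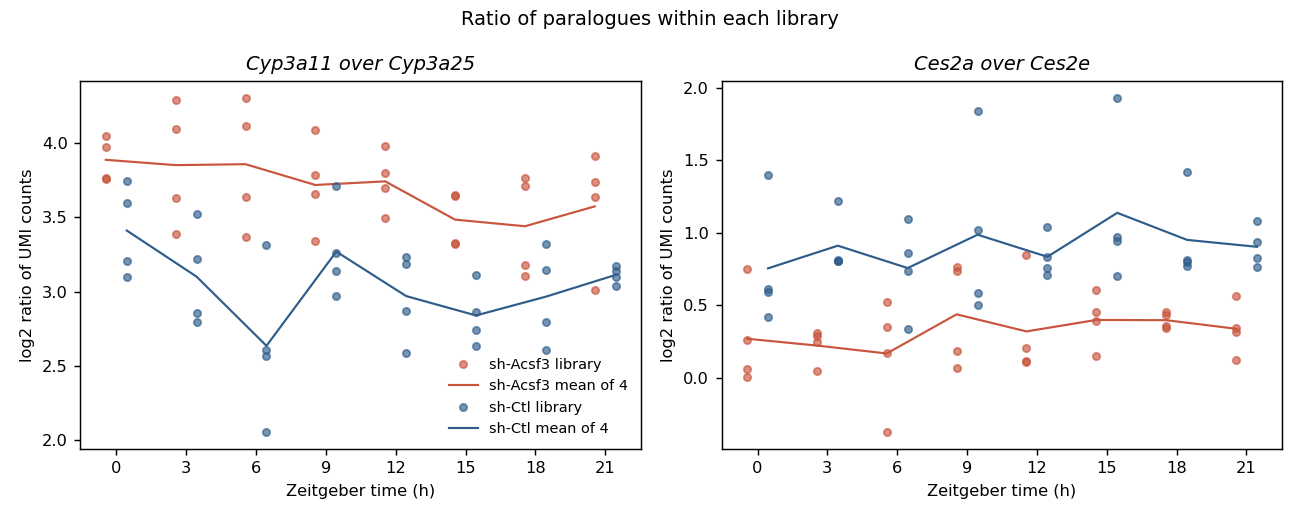
Log2 ratio of UMI counts (0.5 added to each) within every library, by zeitgeber time in hours, for Cyp3a11 over Cyp3a25 (left) and Ces2a over Ces2e (right); red is sh-Acsf3, blue is sh-Ctl, lines join means of 4. The first ratio was higher and the second lower in sh-Acsf3 livers at each of the 8 times.

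Ces2a (chr8:104734003-104741634, plus strand, up to 12 exons) was the member that fell. At ZT0 it had 250.6, 212.9, 205.0 and 310.2 CPM in sh-Acsf3 livers, against 323.0, 345.5, 360.7 and 392.1 CPM in sh-Ctl livers. At ZT0 and at ZT21 no sh-Acsf3 library reached the lowest sh-Ctl library, a separation that 2.14% of gene-by-time pairs showed in that direction. At the other 6 times the groups overlapped.

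Over the day Ces2a ranged from 200.01 to 367 CPM in sh-Acsf3 livers (median 256) and from 212 to 492 CPM in sh-Ctl livers (median 343). Below every sh-Ctl library of their time lay 17 of 32 sh-Acsf3 libraries, again a count not made over all genes. The averaged log2 difference was -0.35 ± 0.06 (SE; 95% interval -0.46 to -0.24), a level 0.784 times that of sh-Ctl livers, with an adjusted p of 2.24e-06 (edgeR). It was below 0 at 8 of 8 times and ran from -0.54 at ZT0 to -0.13 at ZT15. The smallest adjusted p at a single time was 0.108 (edgeR), at ZT0. In each of the 4 sh-Ctl libraries with high Saa1, Ces2a was the lowest of its group, at 242, 212, 261 and 247 CPM. Without these libraries the averaged difference was -0.41 and Ces2a also passed at ZT0, as it did without sh-Acsf3 replicate 4 at ZT0. Without the libraries that held pancreas transcripts it was -0.35.

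Ces2e, another carboxylesterase of the same cluster, rose by a log2 difference of 0.24 ± 0.06 (SE; adjusted p = 0.00498, edgeR), with 212 ± 33.4 CPM in sh-Acsf3 livers and 181 ± 34.3 CPM in sh-Ctl livers (SD, n = 32 each). Ces2e did not pass without replicate 3 of every group (adjusted p = 0.0721, edgeR). The ratio of Ces2a to Ces2e, also chosen after both differences were seen, averaged 1.248 in sh-Acsf3 livers and 1.873 in sh-Ctl livers on the geometric scale and was lower in sh-Acsf3 livers at 8 of 8 times. Ces2a made up 50.5% of the UMIs of 8 Ces2 genes in sh-Acsf3 livers and 58.6% in sh-Ctl livers. Of the 50-base stretches near the 3′ end of Ces2a, 5.02% occur in other genes, Ces2e among them, so part of this pair's reads could be assigned to either.

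**Figure D3:**
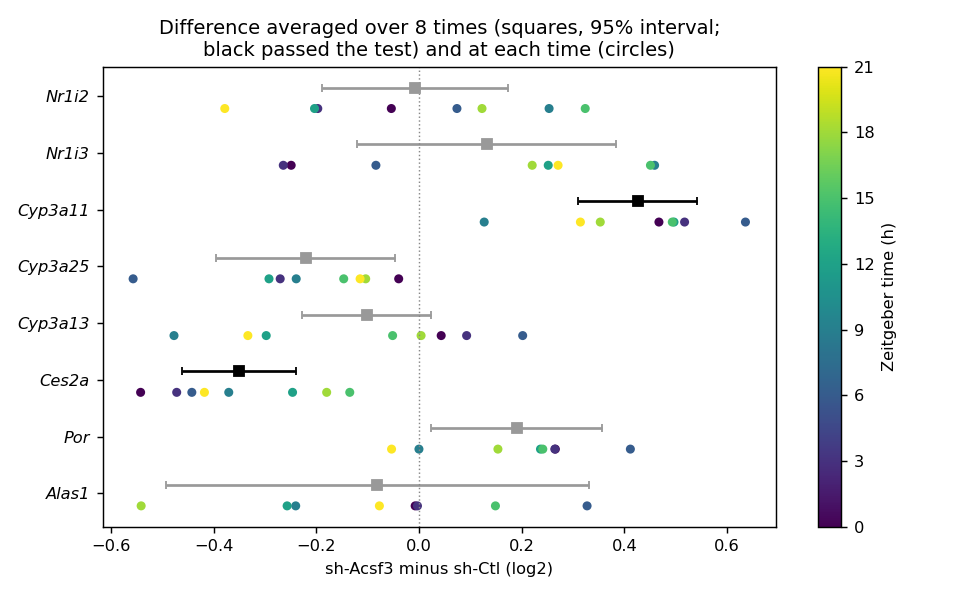
Log2 difference between sh-Acsf3 and sh-Ctl livers for the 8 tested members. Squares with 95% intervals are the differences averaged over 8 times (black where the adjusted p is under 0.05) and circles the differences at single times, coloured by zeitgeber time in hours. Cyp3a11 lay above 0 and Ces2a and Cyp3a25 below 0 at all 8 times, and the intervals of Nr1i2, Nr1i3, Cyp3a13 and Alas1 included 0.

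No difference passed the test for either receptor transcript. Nr1i2, encoding PXR, ranged from 4.26 to 16.3 CPM in sh-Acsf3 livers (median 9.31) and from 6.74 to 21.5 CPM in sh-Ctl livers (median 9.38). The groups overlapped at all 8 times, and the averaged log2 difference was -0.01 ± 0.09 (SE; 95% interval -0.19 to 0.17; adjusted p = 0.983, edgeR). Its sign changed with the scaling between libraries. Nr1i3, encoding CAR, ranged from 11.8 to 53.2 CPM in sh-Acsf3 livers (median 26.0) and from 13.1 to 34.9 CPM in sh-Ctl livers (median 23.7), with overlap at all times and a log2 difference of 0.13 ± 0.13 (SE; 95% interval -0.12 to 0.38; adjusted p = 0.557, edgeR). The rise of Cyp3a11 was thus measured beside receptor transcripts whose intervals span 0; neither interval shows that the receptors were equal.

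The Cyp2b genes were at the limit of detection. Cyp2b10 had 102 UMIs in sh-Acsf3 livers and 67 in sh-Ctl livers, spread over 22 of 32 libraries in each treatment. Pooled, that is 1.02 CPM in sh-Acsf3 livers and 0.681 CPM in sh-Ctl livers. The highest libraries were at 5.12 CPM (sh-Acsf3, ZT12) and 4.30 CPM (sh-Ctl, ZT0), and 10 libraries of each treatment had none. At ZT0, 4 libraries held 39 of the UMIs in sh-Acsf3 livers and 4 held 25 in sh-Ctl livers. Of the 39, 31 came from replicate 3, the deepest library, where they amount to 3.49 CPM, and the other 3 libraries held 5, 2 and 1; of the 25 in sh-Ctl livers, 14 came from replicate 2. With no filter on low counts, the log2 difference was 0.34 (adjusted p = 0.992, edgeR), and it was -0.15 without replicate 4 of every group (adjusted p = 0.709, edgeR), so no direction is given for Cyp2b10.

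Cyp2b9, a P450 gene mainly expressed in female mouse liver, had 0 UMIs in sh-Acsf3 livers and 5 in sh-Ctl livers, of which 4 came from 1 library at ZT9. A count of 0 allows up to 0.0301 CPM over the sh-Acsf3 libraries together, counting error only. The Cyp2b family as a whole had 174 UMIs over 7 genes, and Cyp2b13, Cyp2b19 and Cyp2b23 had none.

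The partners of the P450 enzymes, Por and Alas1, showed the largest daily changes among the 8 tested members. Both peaked near ZT14, and each treatment showed this. Their promoters are printed because the 2 transcripts moved together over the day. RefSeq (GRCm38.p6) gives the 250 bases before the start at chr5:135688895-135689144 (plus strand) for Por and chr9:106247955-106248204 (minus strand) for Alas1, both inside the longer spans that GENCODE M21 gives these genes. Capitals mark the GC box GGGCGG on either strand.
Por: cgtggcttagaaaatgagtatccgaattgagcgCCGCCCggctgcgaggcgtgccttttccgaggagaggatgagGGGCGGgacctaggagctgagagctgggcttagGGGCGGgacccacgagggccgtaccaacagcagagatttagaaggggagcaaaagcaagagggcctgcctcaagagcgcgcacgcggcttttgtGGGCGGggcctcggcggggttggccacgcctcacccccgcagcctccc
Alas1: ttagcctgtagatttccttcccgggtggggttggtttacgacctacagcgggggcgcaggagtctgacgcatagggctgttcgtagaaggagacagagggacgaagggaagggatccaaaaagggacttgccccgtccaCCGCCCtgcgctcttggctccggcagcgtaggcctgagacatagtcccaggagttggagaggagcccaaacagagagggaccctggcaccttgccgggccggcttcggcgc
The Por window holds 4 GC boxes and that of Alas1 holds 1. GC boxes stood in 3 of 10 members, the other being Cyp3a11, and in 35.7% of all windows. The windows of Por and Alas1 were 67.3% and 65.3% G and C, against a median of 52.7% over all windows and 46.3% for Cyp3a11. The D-box letters TTATGTAA and TTACGTAA, the sequence bound by Dbp, Tef and Hlf, were in none of the 10 windows, and in 0.938% and 0.119% of all windows. The E-box CACGTG was in 1 member window, that of Nr1i3, and in 7.15% of all windows. CCAAT was in 5 of 10 member windows and in 37.4% of all. A window without these letters says only that they are not in those 300 bases.

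Por (chr5:135670033-135735326, plus strand) had 46.7, 68.8, 59.8 and 61.4 CPM at ZT3 and 229.8, 207.5, 236.7 and 301.1 CPM at ZT15 in sh-Acsf3 livers. In sh-Ctl livers it had 47.0, 44.0, 59.4 and 46.5 CPM at ZT3 and 195.0, 219.8, 178.8 and 229.3 CPM at ZT15. All libraries at ZT15 lay above all libraries at ZT3 in both treatments, the times of the highest and lowest means of Por. The share of all genes separated in this way was not computed. The ratio of the highest to the lowest time mean was 4.12 in sh-Acsf3 livers and 4.18 in sh-Ctl livers.

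A cosine of 24 h fitted to Por had an amplitude of 1.04 ± 0.08 (log2, SE) and a peak at ZT13.9 ± 0.304 h in sh-Acsf3 livers, against 1.08 ± 0.08 and ZT14.2 ± 0.297 h in sh-Ctl livers. The rhythm passed the test in both, with adjusted p = 5.92e-15 in sh-Acsf3 livers and 3.86e-15 in sh-Ctl livers (edgeR). The amplitudes differed by -0.04 ± 0.12 and the peaks by -0.288 ± 0.425 h (SE). Averaged over the day, the log2 difference of Por between treatments was 0.19 ± 0.08 (SE), with a 95% interval of 0.02 to 0.36 that did not pass after adjustment (adjusted p = 0.122, edgeR). It passed without replicate 4 of every group (adjusted p = 0.0167, edgeR) and when libraries were scaled by their size alone (adjusted p = 0.0157, edgeR).

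Alas1 (chr9:106233455-106248654, minus strand) had 86.0, 27.0, 68.1 and 32.4 CPM at ZT3 and 310.3, 368.2, 391.2 and 203.3 CPM at ZT15 in sh-Acsf3 livers. In sh-Ctl livers it had 48.1, 58.1, 68.2 and 37.5 CPM at ZT3 and 199.6, 263.0, 201.8 and 483.3 CPM at ZT15. Again all ZT15 libraries lay above all ZT3 libraries in each treatment, with no share over all genes to set beside it. The amplitude was 1.11 ± 0.23 (log2, SE) with a peak at ZT13.4 ± 0.799 h in sh-Acsf3 livers (adjusted p = 0.00114, edgeR) and 1.13 ± 0.20 with a peak at ZT13.8 ± 0.686 h in sh-Ctl livers (adjusted p = 3.71e-04, edgeR). Without replicate 3 of every group the Alas1 rhythm in sh-Acsf3 livers no longer passed (adjusted p = 0.0806, edgeR). Averaged over the day the log2 difference was -0.08 ± 0.20 (SE; adjusted p = 0.865, edgeR), and its sign turned, to 0.23, without replicate 4.

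Alas1 varied more between libraries of 1 group than most genes. The SD of its log2 level within groups was 0.84, at the 99.2 percentile of 488 genes of like level, whose median SD was 0.20. Nr1i3 followed with 0.49, at the 96.5 percentile of 1944 genes of like level, whose median SD was 0.25. For Cyp3a11 and Ces2a the SD was 0.23 each, at the 40.9 and 62.9 percentiles of genes of like level.

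Of the other members, only Nr1i2 passed the rhythm test, and only in sh-Acsf3 livers, a difference between treatments that did not pass its own test. Its amplitude was 0.33 ± 0.09 (log2, SE) with a peak at ZT12.9 in sh-Acsf3 livers (adjusted p = 0.0342, edgeR) and 0.12 ± 0.08 in sh-Ctl livers (adjusted p = 0.275, edgeR). The amplitudes differed by 0.21 ± 0.12 (SE). The call was lost without replicate 1, 2 or 4, without the libraries that held pancreas transcripts, with a 12 h cosine beside that of 24 h, and without any 1 of 8 sh-Acsf3 libraries, with adjusted p of 0.0506 to 0.131 (edgeR). Those 8 were replicate 1 at ZT3 and ZT15, replicate 2 at ZT12, replicate 3 at ZT3 and ZT9, and replicate 4 at ZT0, ZT12 and ZT15. Cyp3a13 missed the threshold in both treatments (adjusted p = 0.105 in sh-Acsf3 livers and 0.0768 in sh-Ctl livers, edgeR) and passed in both, with adjusted p of 0.0332 in sh-Acsf3 livers and 8.35e-04 in sh-Ctl livers (edgeR), without the 4 sh-Ctl libraries of high Saa1. In sh-Ctl livers Cyp3a13 also passed without replicate 1 of every group, or without any 1 of replicate 1 at ZT9, replicate 2 at ZT18 and replicates 3 or 4 at ZT15 (adjusted p of 0.00284 to 0.0489, edgeR). Nr1i3 missed it in sh-Acsf3 livers (adjusted p = 0.0940, edgeR) and passed without replicate 4 of every group, or without any 1 of sh-Acsf3 replicate 2 at ZT18 and replicate 4 at ZT0 or ZT6 (adjusted p of 0.0104 to 0.0462, edgeR), and with limma-voom (adjusted p = 0.0448). Cyp3a11, with amplitudes of 0.08 ± 0.04 in sh-Acsf3 livers and 0.02 ± 0.07 in sh-Ctl livers, Cyp3a25 and Ces2a did not pass in either treatment. A rhythm passed for 19.6% of all genes in sh-Acsf3 livers and 19.4% in sh-Ctl livers, against 3 and 2 of the 8 members.

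For no member did the difference in rhythm between treatments pass. The test of the difference in rhythm passed for 0% of genes, with 431 genes at an unadjusted p under 0.05, no member among them (edgeR). The test that the effect of the knockdown depends on the time also passed for 0% of genes, with 306 at an unadjusted p under 0.05 and no member among them (edgeR).

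The clock output factors place these peaks in the day. Dbp, Tef and Hlf encode PAR bZip factors that, as background, drive Por, Alas1 and CAR expression in mouse liver. Dbp peaked at ZT10.8 in both treatments. Tef peaked at ZT13.3 in sh-Acsf3 livers and ZT13.0 in sh-Ctl livers, and Hlf at ZT13.7 in sh-Acsf3 livers and ZT13.8 in sh-Ctl livers. The fitted peaks of Alas1 and Por came after that of Dbp in both treatments. In sh-Ctl livers Por peaked at ZT14.2 ± 0.297 h, Hlf at ZT13.8 ± 0.362 h and Tef at ZT13.0 ± 0.274 h (SE). In sh-Acsf3 livers these were ZT13.9 ± 0.304 h, ZT13.7 ± 0.590 h and ZT13.3 ± 0.348 h. The peaks were not tested against each other. Nr1i3, encoding CAR, did not pass the rhythm test in either treatment (adjusted p = 0.0940 in sh-Acsf3 livers and 0.924 in sh-Ctl livers, edgeR). All 8 listed clock output factors passed the rhythm test in both treatments.

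**Figure D4:**
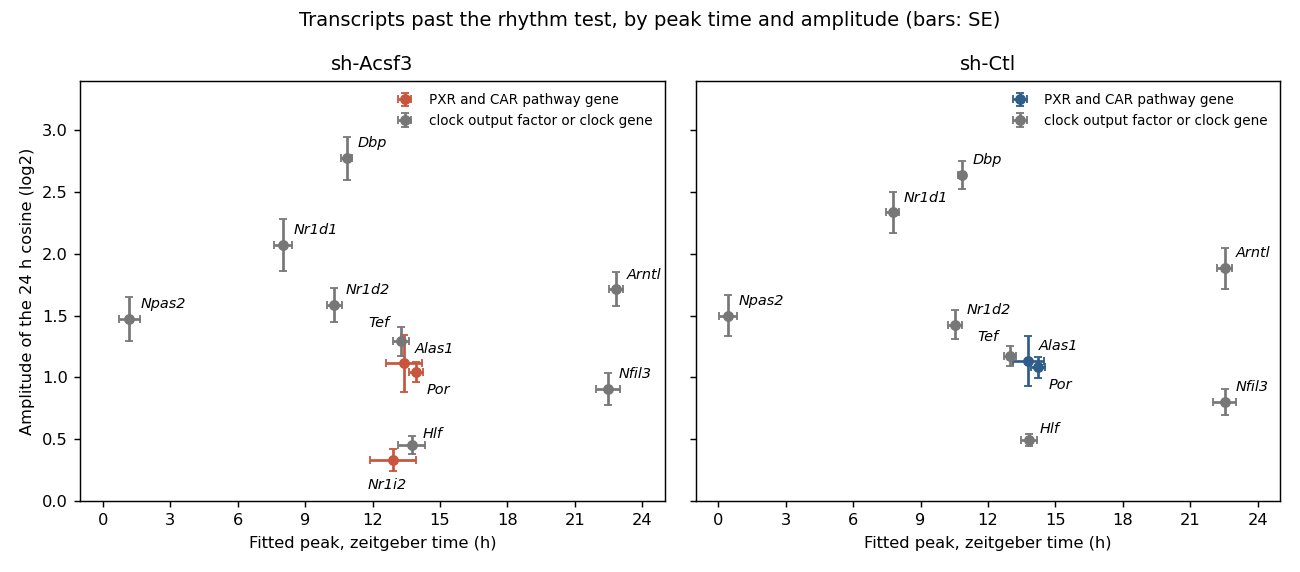
Fitted peak (zeitgeber time in hours) and amplitude (log2) of the 24 h cosine for transcripts that passed the rhythm test, with SE bars, in sh-Acsf3 livers (left) and sh-Ctl livers (right). Coloured points are PXR and CAR pathway genes and grey points clock output factors or clock genes. Por and Alas1 had amplitudes near that of Tef, with fitted peaks after that of Tef in both treatments. Hlf peaked at a time like that of Por with a smaller amplitude (0.45 in sh-Acsf3 livers and 0.49 in sh-Ctl livers). Nr1i2 appears in sh-Acsf3 livers.

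The transcripts whose 16 group means were most like those of each member, out of 3709 genes with at least 20 CPM, are given as descriptions (Pearson r over 16 groups that share libraries and daily times). For Por they were Efhd2 (0.97), Slc16a12 (0.95) and Fkbp5 (0.95). For Alas1 they were Eci2 (0.92), Cdv3 (0.92) and Timm9 (0.91). Those nearest to Cyp3a11 were Abhd2 (0.90), Slc39a4 (0.90) and Ywhaz (0.89), and those nearest to Nr1i2 were Slc35g1 (0.86), Them4 (0.83) and Dnaja2 (0.82). Nr1i3 was nearest to Tmem70 (0.86), Aldh3a2 (0.82) and Acadl (0.80). For Cyp2b10 the nearest were Ergic1 (0.81), Slc47a1 (0.79) and Myl12b (0.73), from counts too sparse to rest on.

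The members' deviations from their group means were weakly related across libraries. Over 64 libraries, which share depth and composition between genes, the 28 pairs of tested members had correlations from -0.35 to 0.59 with a median of 0.13, and 20 were above 0. The highest were Cyp3a25 with Nr1i3 (0.59), Por with Ces2a (0.56), Nr1i2 with Por (0.51) and Cyp3a11 with Cyp3a25 (0.47). The lowest was Cyp3a13 with Alas1 (-0.35). Cyp3a11 and Ces2a moved in opposite directions with the knockdown. Between libraries of a group they correlated at 0.05 in sh-Acsf3 livers and 0.63 in sh-Ctl livers. Ces2a with Cyp3a25 (-0.05 in sh-Acsf3 livers and 0.50 in sh-Ctl livers) and with Alas1 (-0.005 and 0.37) differed likewise. Ces2a with Cyp3a13 went the other way (0.04 and -0.33). Such differences were not particular to Ces2a. Cyp3a11 with Nr1i2 correlated at -0.33 in sh-Acsf3 livers and 0.45 in sh-Ctl livers, and Por with Alas1 at -0.18 and 0.56. Cyp3a13 with Nr1i2 went the other way (0.11 and -0.35). The sh-Ctl values include the libraries of high Saa1, where Ces2a was lowest of its group, as was Cyp3a11 at ZT12, ZT15 and ZT18. Whether these libraries bear on the contrast was not tested.

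The wider pathway changed in both directions. Of 115 further genes in 6 lists, 93 were tested, and 7 rose and 11 fell in sh-Acsf3 livers, 19.4% in all against 14.5% of all genes. Their median log2 difference was -0.04, against -0.01 for all genes.

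**Figure D5:**
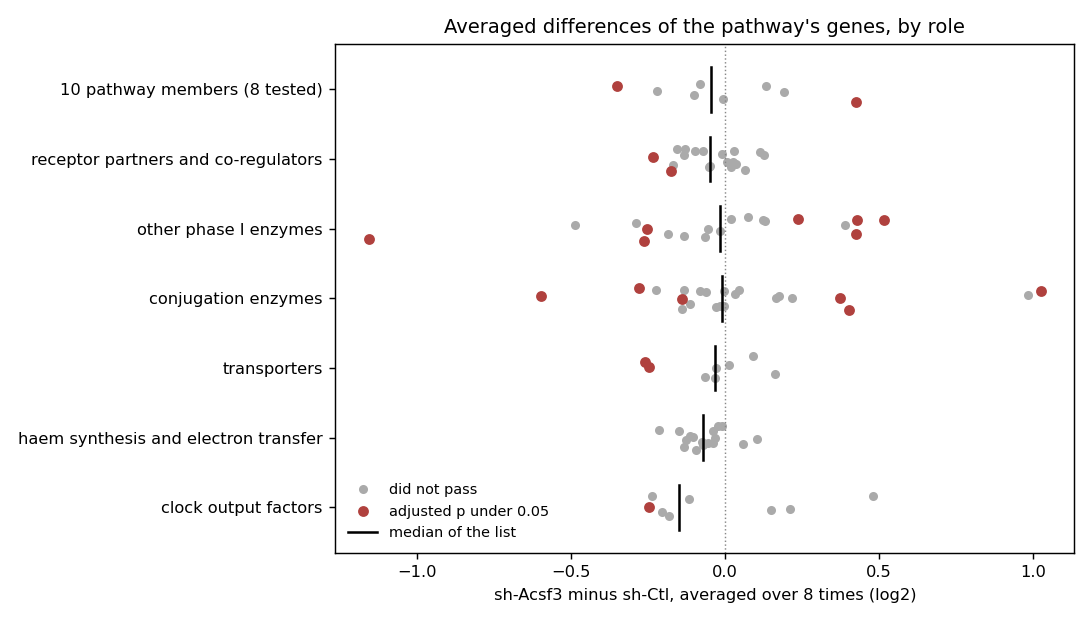
Log2 difference between sh-Acsf3 and sh-Ctl livers, averaged over 8 times, for each tested gene of the 10 members and of 6 lists of pathway genes by role. Red points passed (adjusted p under 0.05), grey points did not, and black bars are medians. Changes in both directions stood among phase I and conjugation enzymes, while no gene of haem synthesis and electron transfer passed.

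Among 19 receptor partners and co-regulators none rose and 2 fell. Hnf4a, a nuclear receptor that sustains hepatocyte gene expression, averaged 239 ± 39.6 CPM in sh-Acsf3 livers and 283 ± 58.9 CPM in sh-Ctl livers (SD, n = 32 each), a log2 difference of -0.23 ± 0.05 (SE; adjusted p = 5.40e-04, edgeR). Cebpa, another factor of hepatocyte identity, fell by 0.18 on the log2 scale (adjusted p = 0.00413, edgeR), a call lost without replicate 1 (0.0663) and with scaling by library size only (0.0717). Foxo1 (-0.13) and the coactivator Ncoa1 (-0.13) did not pass, though Foxo1 did without replicate 2 (adjusted p = 0.0292, edgeR), without sh-Acsf3 replicate 2 at ZT6 or without sh-Acsf3 replicate 3 at ZT0, and Ncoa1 did without replicate 3 (0.0496). Rxra, the partner of both receptors (-0.01 ± 0.05, SE), did not pass.

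Of 19 other tested phase I enzymes 4 rose and 3 fell. Cyp2c37, a P450 that oxidises fatty acids, had the largest difference among the tested genes of the 6 lists, with 85.6 ± 33.7 CPM in sh-Acsf3 livers and 190 ± 42.0 CPM in sh-Ctl livers (SD, n = 32 each), a log2 difference of -1.16 ± 0.12 (SE; adjusted p = 8.72e-11, edgeR). Ces1g, a carboxylesterase, rose by 0.52 and Cyp2a5, a P450 that oxidises coumarin, by 0.43 on the log2 scale. The remaining calls were Ces2e (0.24), described with Ces2a, Cyp2c38 (0.42), Cyp2c29 (-0.25) and Ces1d (-0.26). The 19 had a median of -0.02.

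Of 22 tested conjugation enzymes 3 rose and 3 fell, with a median of -0.01. The 3 that rose are glutathione transferases of the mu class. Gstm3 averaged 53.4 ± 38.7 CPM in sh-Acsf3 livers and 24.3 ± 18.0 CPM in sh-Ctl livers (SD, n = 32 each), a log2 difference of 1.02 ± 0.21 (SE; adjusted p = 4.46e-04, edgeR). Gstm1 rose by 0.40 and Gstm2 by 0.37, while Gstm4 (-0.06) did not pass. Gstm1 was not called without replicate 3 (adjusted p = 0.179, edgeR), without replicate 4 (0.135) or without the sh-Ctl libraries of high Saa1 (0.0591). Gstt3, a theta class transferase (-0.60), the sulfotransferase Sult2a8 (-0.28) and the glucuronosyltransferase Ugt2b34 (-0.14) fell. Sult2a8 was not called without replicate 3 (adjusted p = 0.153, edgeR), without replicate 4 (0.0596) or with library size only (0.0668). Gstm genes are near-identical copies in part, so their counts could be split among them.

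Of 8 tested transporters none rose, and the uptake carriers Slco1a1 (-0.26) and Slco1b2 (-0.25) fell, while the efflux pump Abcc6 (0.16, adjusted p = 0.0549, edgeR) and Slco2b1 (-0.07) did not pass. Abcb1a, Abcb1b and Abcc4 of the same list were too low to test. They had 60, 151 and 199 UMIs in sh-Acsf3 livers and 33, 76 and 112 in sh-Ctl livers, in that order, and no direction is given. Slco1a1 was not called without replicate 3 (adjusted p = 0.107, edgeR) or replicate 4 (0.0562), and Slco1b2 without replicate 3 (0.115) or with library size only (0.0944). Abcc6 stood at the threshold and passed without replicate 2 (adjusted p = 0.00507, edgeR), without any 1 of 18 libraries, and in 4 other alternatives, library size only among them (0.00450). Of 17 genes of haem synthesis and electron transfer, the list closest to Por and Alas1 in function, none passed. Their median was -0.07, and the smallest p belonged to Cyb5b (-0.11), Pgrmc1 (-0.09), Blvra (-0.15) and Pgrmc2 (-0.10). Cyb5b passed without replicate 4 (adjusted p = 0.00840, edgeR), without the libraries with pancreas transcripts (0.0315), without sh-Acsf3 replicate 2 at ZT21 or without sh-Ctl replicate 4 at ZT21, and Pgrmc1 passed without sh-Acsf3 replicate 2 at ZT6 (0.0317). Of 8 clock output factors Hlf fell by 0.25 on the log2 scale (adjusted p = 0.00243, edgeR), and Nr1d2 (-0.24), Tef (-0.18) and Npas2 (0.48) did not pass. Without the sh-Ctl libraries of high Saa1, Nr1d2 (adjusted p = 0.0397, edgeR) and Tef (0.0463) passed, as both did with no filter on low counts; Nr1d2 also passed without replicate 2 and Tef without sh-Acsf3 replicate 4 at ZT6.

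Genes mainly expressed in female liver, counted apart from the 6 lists, stayed low in these male livers. Of 17 such genes 3 were tested, and Cyp2c40 fell, with 2.71 CPM on average in sh-Acsf3 livers and 11.5 CPM in sh-Ctl livers, a log2 difference of -2.18 ± 0.26 (SE; adjusted p = 1.26e-08, edgeR). Of the genes too low to test, Cyp2a4 had 76 UMIs in sh-Acsf3 livers and 19 in sh-Ctl livers. Cyp2c69 went the other way, with 11 UMIs in sh-Acsf3 livers and 86 in sh-Ctl livers. Cyp2b13, Cyp3a16, Cyp3a41a and Cyp3a41b had none. Stretches shared with other genes were computed for the members only. The counts of Cyp2c40, Cyp2a4 and Cyp2c69 could therefore include reads of related genes.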

How the data were processed

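The authors deposited 1 table of UMI counts per gene for 64 bulk liver libraries, per the file headers. The labels point to the published method of bulk RNA barcoding and sequencing, and the submitters' processing notes name STAR and the builds GRCm38 and mm10. The counting tool and strand setting are not given in the sources used here. Reads from Por, Alas1 and Nr1i3 could therefore include those of genes on the opposite strand, and reads of Cyp3a13 those of the overlapping Gm15502.

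Counts were tested as deposited with edgeR 4.0.16 (R 4.3.3): TMM scaling, filterByExpr over 16 groups (minimum count 10, minimum total 15), robust quasi-likelihood fits of group means, and Benjamini-Hochberg adjustment over all tested genes, with 0.05 as the threshold. Differences (sh-Acsf3 minus sh-Ctl) were tested as the mean over 8 times, at each time, and for dependence on time. Rhythms were fitted as a mean with a 24 h cosine and sine per treatment. Amplitudes and peaks came from least squares on log2 CPM (prior count 2). Members and lists were chosen with earlier results of these data known. Named genes were the 10 members, up to 4 genes of smallest p per list, all remaining calls of a list and the 3 most similar genes of 6 members. The scripts were tested on simulated data. Sequences are from RefSeq (GRCm38.p6) and gene positions from GENCODE M21 (GRCm38). Alternatives used limma 3.58.1 and DESeq2 1.42.0, other scalings and filters, and left out replicates or libraries.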

Additional observations from a re-analysis of the deposited data

Results flagged for a closer look

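In 7 of 128 groups of 4 libraries, for 8 members, 1 library stood apart from the other 3 by Dixon's criterion, where chance alone gives about 1 in 20. For Cyp3a13 these were sh-Acsf3 replicate 3 at ZT0 (142 CPM, others 97.0 to 99.8), sh-Acsf3 replicate 2 at ZT21 (84.7 CPM, others 109 to 111) and sh-Ctl replicate 1 at ZT9 (189 CPM, others 92.2 to 104), which is also a library of high Saa1. For Cyp3a25 they were sh-Ctl replicate 4 at ZT9 (414 CPM, others 245 to 258) and at ZT21 (255 CPM, others 292 to 294). Nr1i2 was low in sh-Acsf3 replicate 1 at ZT6 (6.72 CPM, others 9.23 to 9.34). Alas1 was high in sh-Ctl replicate 1 at ZT12 (534 CPM, others 227 to 275).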

How the results depend on the processing

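Cyp3a11 and Ces2a kept their direction and their call in all 78 alternatives, Cyp3a11 with log2 differences of 0.37 to 0.50 and Ces2a of -0.41 to -0.30. Members that rose numbered 2 with library size only and with no filter on low counts (Por joined in both), and members that fell 2 with no filter (Cyp3a25 joined). Member-by-time calls, 0 as reported, numbered 3 with no filter and 1 each with DESeq2, limma-voom (Cyp3a11 at ZT6 in both) and without the libraries of high Saa1. The other pathway genes called, 18 as reported, numbered 32 with no filter. Genes called in all, 1461 as reported, numbered 971 at a mean CPM of at least 5. With library size only, 1125 genes rose and 247 fell, 82% higher against 57.1% as reported, and the median of all genes was 0.05, against -0.01 as reported. The averaged difference of Nr1i2 turned to 0.0418 (library size only), 0.0101 (mean CPM of at least 5) and 0.00366 (replicate block).

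Leaving out replicates or single libraries, members that rose numbered 1 to 2, members that fell 1 to 2, member-by-time calls 0 to 1, pathway calls 9 to 25 and all calls 787 to 1612. The lowest pathway and all-gene counts came without replicate 3. The difference of Nr1i2 lay between -0.0793 and 0.0679 and that of Alas1 between -0.217 and 0.231. Cyp3a25 passed without sh-Acsf3 replicate 2 at ZT9, sh-Acsf3 replicate 4 at ZT21 or sh-Ctl replicate 4 at ZT3. The cause was not tested.

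Libraries of equal replicate number showed no general pairing across treatments: deviations of 32 pairs correlated at -0.35 to 0.45 (median 0.04), with 13 above 0.1. Whether some of these pairs shared a batch was not tested. With a replicate block 878 genes rose and 680 fell, and no member's call changed. Depth leaves Cyp2b9 and Cyp2b10 without a usable difference.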
